A study of Caenorhabditis elegans with 3 samples.

Results

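The microRNA (miRNA) genes of the nematode Caenorhabditis elegans were examined for regions occupied by EGL-27 in first-stage (L1) larvae. The members were all 261 genes with the biotype miRNA in the Ensembl annotation of WBcel235, of 46890 annotated genes on the 6 nuclear chromosomes. A gene lying wholly within a protein-coding gene on either strand was called hosted, and every other gene was called stand-alone. There were 155 stand-alone and 106 hosted genes, and 3 of the stand-alone genes overlapped a protein-coding gene in part. Of the hosted genes, 74 had a host on their own strand and 32 had a host on the opposite strand only. A host exon was not overlapped by 97 of the hosted genes. Genes closer together than 2 kb were joined into 214 loci, of which 187 held 1 gene.

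EGL-27 is a nuclear protein of the MTA family, whose members serve in the NuRD complex that remodels and deacetylates chromatin. Chromatin immunoprecipitation sequencing (ChIP-seq) had been done on whole larvae, pooled male and female, of strain OP177, which carries unc-119(ed3) III and the insertion wgIs177 and expresses EGL-27 with GFP and FLAG at its C-terminus. All 3 biological replicates share this genotype and stage, the labels give 1 group with no second condition, and an untagged strain was not analysed here. Occupied cell types cannot be told apart in whole animals. The authors deposited 1 list of the regions that passed an irreproducible discovery rate (IDR) threshold, and relaxed lists of 30000, 30000 and 13516 regions for replicates 1, 2 and 3 and of 30000 regions for the 3 replicates together (the pooled list). Each region has a summit, its highest position, and a signal value, the authors' own measure of height on a scale that is not stated. Signal ran from 28.9 to 166.1 in the IDR list, and rank 1 is the highest signal of a list. From each replicate's list, a top list was taken that holds as many of its highest regions as the IDR list has. How deeply each library was sequenced is unknown, as no file used here gives read numbers.

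MiRNAs are short RNAs cut from hairpin precursors by Drosha and Dicer and loaded into Argonaute proteins, which they guide to messenger RNAs through pairing with their seed, bases 2 to 8. Animal genomes hold families of miRNA genes with the same seed. In C. elegans, lin-4 and let-7 were found through mutations that disturb the timing of larval development, and the mir-51 family acts in embryonic development. Many worm miRNA genes have promoters of their own, and others lie in introns of protein-coding genes and can be transcribed with the host.

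The mir-51 family held 5 of the 16 miRNA genes with an IDR summit within 2 kb, so its mature sequences are given first. They were read from the RefSeq WBcel235 genome at the annotated positions, and capitals mark the seed. The mature RNA shown comes from the 5′ arm of the hairpin in mir-51, mir-52 and mir-53 and from the 3′ arm in mir-54, mir-55 and mir-56. The first 3 genes lie on chromosome IV and the last 3 on chromosome X.
mir-51: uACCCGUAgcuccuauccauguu
mir-52: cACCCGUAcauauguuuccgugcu
mir-53: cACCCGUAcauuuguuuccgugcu
mir-54: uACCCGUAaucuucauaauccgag
mir-55: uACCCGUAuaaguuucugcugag
mir-56: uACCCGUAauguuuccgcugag
All 6 genes in the annotation that carry the seed ACCCGUA are these 6. Aligned from the 5′ end, the RNAs of mir-52 and mir-53 had the same base at 23 of 24 positions and first differed at position 12. Those of mir-54 and mir-56 had the same base at 14 of 22 positions, and those of mir-54 and mir-55 at 9 of 23.

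The genome sequence around 3 of the IDR summits is given because each lies within 500 bp upstream of an annotated miRNA hairpin and away from the start of any protein-coding gene. The mir-4929 summit, 279 bp upstream of its hairpin and 1501 bp from the nearest protein-coding start, also fits this description and is not shown. Each window is 101 bases of build ce11 (RefSeq WBcel235) centred on the summit, on the forward strand, and capitals mark matches to GAGAGA on either strand. The genes named beside the windows all lie on the reverse strand, so that transcription of each runs leftwards from its window.
mir-53 and mir-51, chrIV:11027796-11027896: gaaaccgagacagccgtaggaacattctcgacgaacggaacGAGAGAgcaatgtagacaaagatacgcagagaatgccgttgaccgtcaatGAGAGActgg
mir-54, mir-55 and mir-56, chrX:13145366-13145466: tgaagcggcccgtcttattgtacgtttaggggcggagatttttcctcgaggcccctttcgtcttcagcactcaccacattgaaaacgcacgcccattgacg
mir-90, chrIII:8874259-8874359: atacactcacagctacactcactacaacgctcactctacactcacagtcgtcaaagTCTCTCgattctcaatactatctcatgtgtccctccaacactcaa
The window at mir-53 held 2 matches to GAGAGA, that at mir-90 held 1 (read as TCTCTC) and that at mir-54 held 0. The mature RNA of mir-90 from the 3′ arm, again with the seed in capitals, shares its seed with mir-50 and mir-62, neither of which had an IDR summit within 2 kb.
mir-90: uGAUAUGUuguuugaaugccccu

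An IDR summit lay within 2 kb of 16 of the 261 miRNA genes (6.13%, exact 95% interval 3.54 to 9.76). As background, 3.48% of the 19973 protein-coding genes had an IDR summit within 2 kb of the gene and 2.55% within 2 kb of the 5′ end, and 1.92% of genome bases lay within 2 kb of an IDR summit. The protein-coding genes are longer, with a median length of 2027 bp against 95 bp for the miRNA genes, so their 5′ ends are the closer match in size. Counted by locus, 11 of 214 had a summit (5.14%, 2.59 to 9.01). Measured from the 5′ end of the miRNA gene, the count was again 16. The intervals cover counting only, and genes of 1 locus share summits and are not independent. When IDR summits were kept only if both remaining replicates had them in a top list, members within 2 kb numbered 5 without replicate 1, 4 without replicate 2 and 4 without replicate 3, from sets of 216, 200 and 187 summits. Each set is a smaller part of the IDR list, so the count could not rise whichever replicate was left out. No background share was taken over these sets. Whether the count depends on any 1 replicate therefore cannot be told from them.

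Stand-alone genes had an IDR summit within 2 kb in 6 of 155 cases (3.87%, 1.43 to 8.23), against 2.34% of the bases outside protein-coding genes. Hosted genes had one in 10 of 106 cases (9.43%, 4.62 to 16.7), against 1.67% of the bases inside protein-coding genes. The 2 intervals overlap and the difference was not tested. With a host on the same strand the count was 6 of 74 (8.11%, 3.03 to 16.8), and with a host on the opposite strand only it was 4 of 32 (12.5%, 3.51 to 29.0). The last 4 genes are at 2 loci, since mir-54, mir-55 and mir-56 share 1 summit and mir-1824 has another. The summit of mir-54 is also that of mir-55b, which is among the 6 with a same-strand host. The 2 strand groups are therefore not separate observations. Among other short noncoding RNA genes measured the same way, 23 of 612 tRNA genes (3.76%), 7 of 129 snRNA genes (5.43%) and 38 of 346 snoRNA genes (11.0%) had an IDR summit within 2 kb. By chromosome, the counts were 4 of 33 miRNA genes on I, 5 of 49 on II, 1 of 27 on III, 2 of 50 on IV, 0 of 28 on V (exact upper limit 12.3%) and 4 of 74 on X. The share of protein-coding genes with an IDR summit within 2 kb was 4.55% on I, 3.39% on II, 5.15% on III, 3.14% on IV, 1.64% on V and 4.65% on X. The miRNA counts are too small to set the chromosomes apart, and the exact limit on V includes its protein-coding share.

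**Figure D1:**
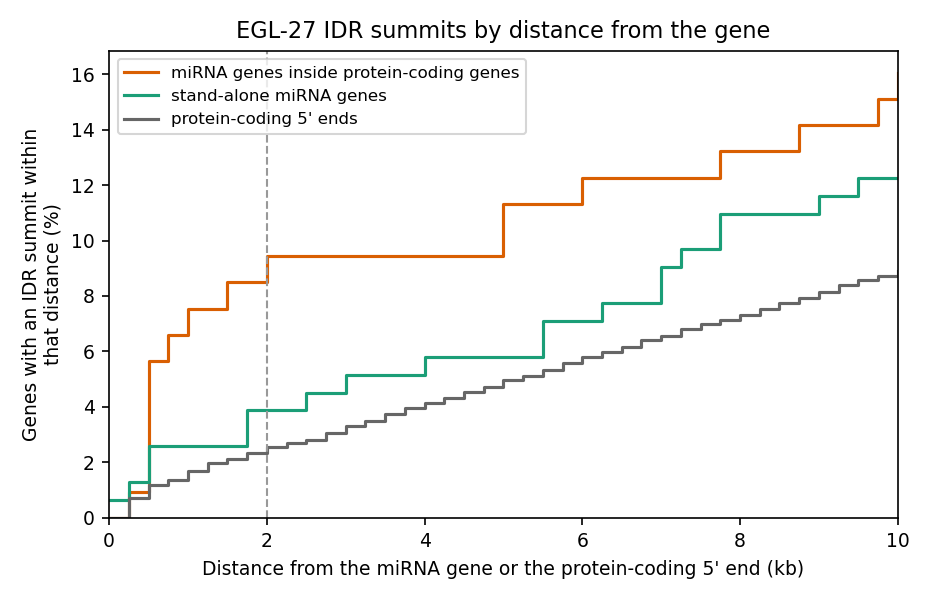
Percentage of genes (y axis) with an EGL-27 IDR summit within the distance on the x axis (kb), for 106 hosted miRNA genes, 155 stand-alone miRNA genes and the 5′ ends of 19973 protein-coding genes, with 2 kb dashed. At 2 kb the lines stand at 9.43%, 3.87% and 2.55%.

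The plot of percentage against distance counts each gene, also where genes share a summit. At 500 bp, 6 of the hosted genes (5.66%) had an IDR summit, and 3 of these 6 (mir-54, mir-55 and mir-55b) share 1 summit. The hosted share was 11.3% at 5 kb. At 5 kb it was 5.81% for the stand-alone genes and 4.97% for the protein-coding 5′ ends. The median distance from a miRNA gene to the nearest IDR summit was 58359 bp.

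In the mir-51 family, 5 of 6 genes and 2 of 3 loci had an IDR summit within 2 kb. The 5 genes share 2 summits, so they are 2 observations rather than 5. In a list of 17 miRNA families with 63 genes, the 57 genes of the other 16 families had 0, beside 6.13% of all miRNA genes. That list does not hold every group with a shared seed. Outside it, mir-90 and mir-1824 each share a seed with 2 genes that had no IDR summit within 2 kb, mir-71 shares one with mir-2953, which had none, and the antisense pair mir-8186.1 and mir-8186.2, which share their seeds, both had one. The chromosome IV locus is stand-alone, and its IDR region spans chrIV:11027668-11028023 with a signal of 37.2 and rank 283. The summit lay 155 bp upstream of mir-53 and 1734 bp upstream of mir-51. It was in the space between mir-53 and the protein-coding gene hrg-5, whose start is 1582 bp away. The region over this summit had a signal of 9.2 (rank 727) in replicate 1, 18.6 (rank 188) in replicate 2 and 10.5 (rank 599) in replicate 3. Only replicate 2 had it in its top list, although all 3 listed it. A lower pooled summit, with a signal of 15.9 and rank 2237, lay between mir-53 and mir-51, and replicate 2 had a region of rank 1457 there.

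The mir-54, mir-55 and mir-56 hairpins lie in an intron of F09A5.3, on the opposite strand to it. Their IDR region spans chrX:13145238-13145593 with a signal of 39.3 and rank 245, and its summit lay 3815 bp from the start of F09A5.3. That summit was 322 bp upstream of mir-54, 492 bp upstream of mir-55 and 629 bp upstream of mir-56. It was also 497 bp downstream of mir-55b, an annotated miRNA gene antisense to mir-55, which is counted among the 16 but does not carry the family seed. The region had a signal of 6.4 (rank 2669) in replicate 1, 23.7 (rank 96) in replicate 2 and 11.4 (rank 485) in replicate 3. Replicates 2 and 3 placed it high and replicate 1 did not. The remaining member, mir-52, is stand-alone on another stretch of chromosome IV (chrIV:14034008-14034107) and is 329781 bp from the nearest IDR summit. Its highest pooled region within 2 kb had a signal of 24.4 and rank 791, 269 bp upstream, under the lowest IDR signal of 28.9. In replicate 2 the highest region near mir-52 had a signal of 23.7 and rank 95, almost the same as at mir-54, with its summit 488 bp upstream. Replicates 1 and 3 gave ranks of 732 and 569, with summits 182 bp downstream and 353 bp upstream. The 3 replicates therefore need not show the same region near mir-52. All 6 genes, which are at 3 loci, thus had a top-list summit of at least 1 replicate within 2 kb. Of all 261 miRNA genes, 231 had none.

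**Figure D2:**
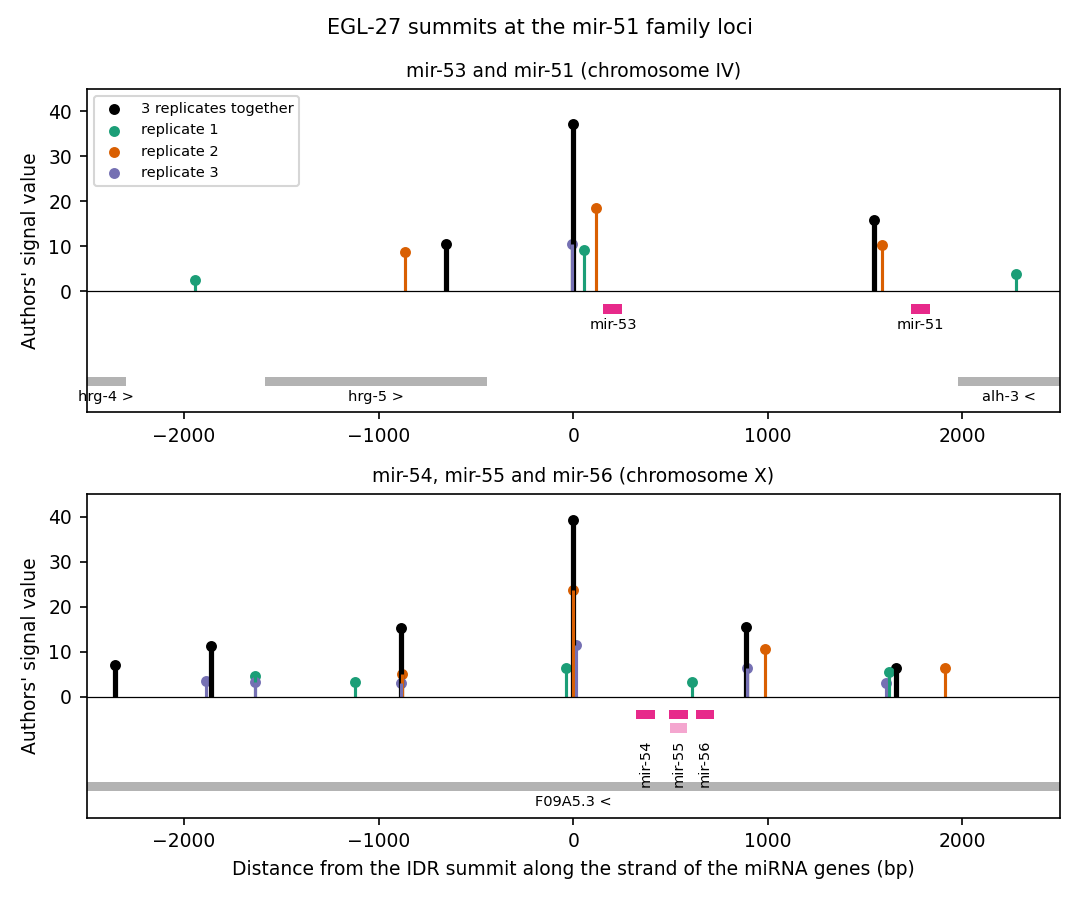
Summits in the deposited lists around the IDR summits at mir-53 (top) and mir-54 (bottom), with the distance from the IDR summit on the x axis (bp, transcription of the miRNA genes running to the right) and the authors' signal value on the y axis. Dark boxes are miRNA genes, the pale box is mir-55b on the other strand, and grey bars are protein-coding genes with arrows for their direction. In both panels each replicate has a summit within 116 bp of the IDR summit, upstream of the first hairpin. Other replicate summits lie farther off in both panels. In the mir-54 panel, replicate 1 has a signal of 6.4 at the IDR summit and of 5.5 at 1624 bp. Heights are not comparable between lists, and the ranks at the IDR summit in replicates 1, 2 and 3 are 727, 188 and 599 at mir-53 and 2669, 96 and 485 at mir-54.

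At 3 hosted members the IDR summit lay at the start of the host gene. The IDR summit with the highest signal near any member was at mir-354, which lies in rps-20, the gene of a small ribosomal subunit protein, and overlaps its exon. The region, chrI:14469149-14469504, had a signal of 61.3 and rank 67. Its summit was 836 bp upstream of mir-354, 224 bp upstream of rps-20 and 173 bp upstream of ekl-4, the gene that diverges from rps-20. Signal was 13.4 (rank 217) in replicate 1, 15.3 (rank 355) in replicate 2 and 25.9 (rank 49) in replicate 3. This is the 1 summit near a miRNA gene that was in the top lists of all 3 replicates.

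The second of these members, mir-2216, lies in gmps-1, which encodes a GMP synthase, on the same strand. The summit (chrII:10868775-10869130, signal 43.5, rank 179) was 1781 bp upstream of mir-2216 and 233 bp upstream of gmps-1. The promoter window of cap-2, an actin-capping protein gene, holds it as well. The replicates differed widely here, with a signal of 3.9 (rank 11680) in replicate 1, 11.6 (rank 928) in replicate 2 and 23.9 (rank 67) in replicate 3. The third, mir-1824, lies in Y87G2A.18 on the opposite strand, and its summit (signal 37.1, rank 288) was 322 bp downstream of mir-1824 and 79 bp upstream of Y87G2A.18. Signal was 16.9 (rank 92) in replicate 1, 6.0 (rank 10577) in replicate 2 and 12.3 (rank 415) in replicate 3, so that replicate 2 stood apart.

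The other 5 of the 8 summits near hosted members lay inside the host, away from its start. One is the mir-54 summit. Another pair belongs to mir-71, a miRNA known in worms for extending lifespan and for survival of starved L1 larvae, which lies in an intron of ppfr-1, a regulatory subunit gene of protein phosphatase 4. The nearer mir-71 summit (signal 36.1, rank 313) was 1351 bp upstream of mir-71 and 8611 bp downstream of the ppfr-1 start, and it ranked 308, 1932 and 74 in replicates 1, 2 and 3. The farther one (signal 31.6, rank 423) was 1847 bp upstream of mir-71 and ranked 438, 266 and 2390. Neither summit was high in all 3 replicates, but mir-71 had a top-list summit of every replicate within 2 kb, which mir-354 alone among the other members also had.

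At mir-90, in K01F9.2 on the same strand, the summit (chrIII:8874131-8874486, signal 35.0, rank 340) was 225 bp upstream of the hairpin and 2819 bp inside the host. Signal was 11.0 (rank 406) in replicate 1 and 22.1 (rank 121) in replicate 2, and replicate 3 listed no region over it. At mir-4929, in E01G4.3 on the same strand, the summit (signal 31.4, rank 431) was 279 bp upstream of the hairpin and 7459 bp from the host start. Signal was 7.3 (rank 1672) in replicate 1, 4.8 (rank 18085) in replicate 2 and 14.0 (rank 297) in replicate 3. Replicate 3 alone placed the mir-4929 region among its highest, whereas at mir-90 replicate 3 was the one without a region.

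Stand-alone members outside the mir-51 family had lower signals. Near mir-2215 lay 2 IDR summits in overlapping regions, 1571 bp upstream (signal 35.3, rank 330) and 1783 bp upstream (signal 31.8, rank 419). Replicate 1 ranked them 387 and 502, replicate 2 covered both with 1 region of rank 103 and signal 23.4, and replicate 3 listed the farther one at rank 1698 and none over the nearer. They are also 2883 and 2671 bp upstream of mrpl-20, a mitochondrial ribosomal protein gene. The antisense pair mir-8186.1 and mir-8186.2 shared a summit (signal 31.2, rank 438) about 400 bp away, which also lay 441 bp upstream of gmeb-1. Its region ranked 2721, 4420 and 307 in replicates 1, 2 and 3. In mir-8209, a long miRNA annotation of 262 bp, the summit lay inside the gene, the 1 such case, with a signal of 29.6 and rank 490. The replicates ranked that region 504, 1627 and 432.

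**Figure D3:**
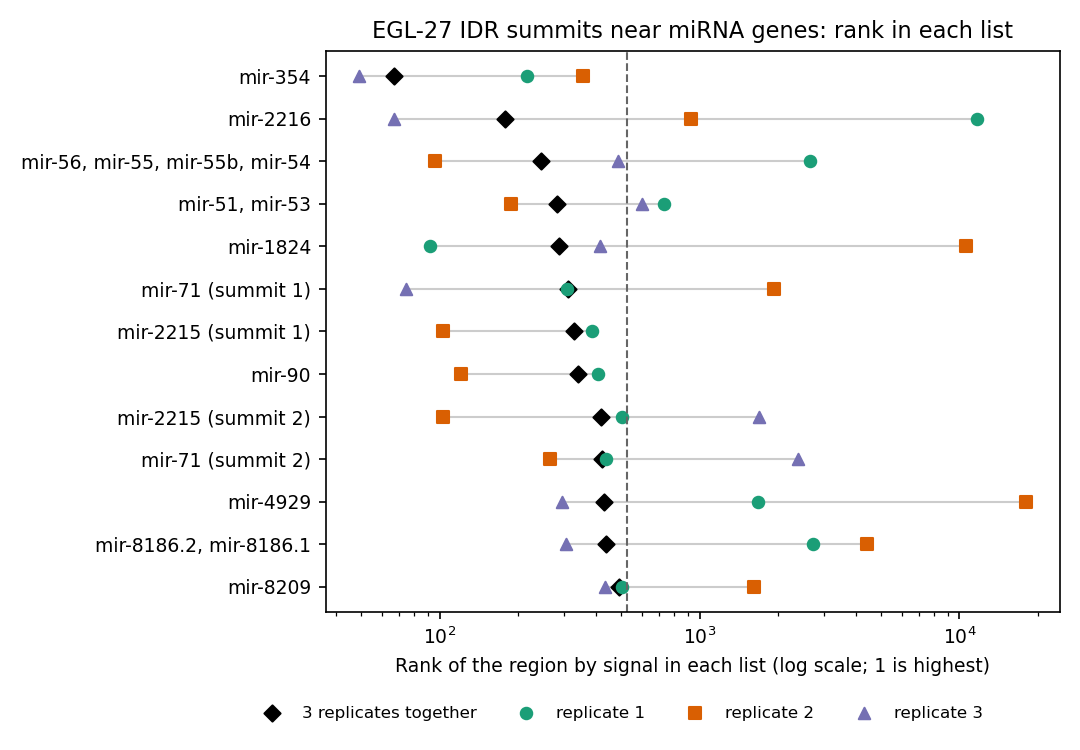
Rank by signal (x axis, log scale, 1 is the highest) of the region at each of the 13 IDR summits near miRNA genes, in the pooled list (diamonds) and in replicates 1 (circles), 2 (squares) and 3 (triangles). The dashed line marks the rank equal to the length of the IDR list, where a top list ends. The mir-354 summit alone has all 4 symbols left of the line, and at mir-90 and the first mir-2215 summit there is no symbol for replicate 3.

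The 13 IDR summits formed 18 gene and summit pairs. Their median signal was 35.3, against 38.3 for all IDR summits, and their ranks ran from 67 to 490 with a median of 330. Among the 262 highest IDR summits lay 3 of them. As the plot of ranks shows, 4 of the 13 were in the top list of 1 replicate, 8 in those of 2 replicates and 1 in those of all 3. Of all IDR summits, 167 (31.9%) were in the top list of 1 replicate, 201 (38.4%) in those of 2 and 134 (25.6%) in those of 3, with 22 (4.2%) in none. Replicates 1 and 2 listed a region over all 13 summits and replicate 3 over 11. The replicate summits lay a median of 37, 31 and 18 bp from the pooled one, and at most 170, 181 and 29 bp.

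Taken in each replicate by itself, the top-list summits lay within 2 kb of 11 miRNA genes in replicate 1 (4.21%), 17 in replicate 2 (6.51%) and 15 in replicate 3 (5.75%). The mean was 14.3 ± 3.06 genes (SD, n = 3), or 5.49% ± 1.17. The background was 3.41%, 3.26% and 3.31% of protein-coding genes in replicates 1, 2 and 3 (3.33% ± 0.0787, SD, n = 3), and 1.95%, 1.91% and 1.92% of genome bases. The miRNA share was above the protein-coding share in each replicate, but by under 1 percentage point in replicate 1. Stand-alone genes numbered 4, 6 and 6 (5.33 ± 1.15) and hosted genes 7, 11 and 9 (9.0 ± 2.0). Different members made up these counts. A top-list summit lay near 2 genes in all 3 replicates, near 9 genes in 2 replicates and near 19 genes in 1 replicate. Protein-coding genes were not split in this way, so whether miRNA genes differ from them here is not known. Among the 19, 14 had no IDR summit within 2 kb, and they include mir-1, the muscle miRNA, and mir-58.1 of the bantam family.

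**Figure D4:**
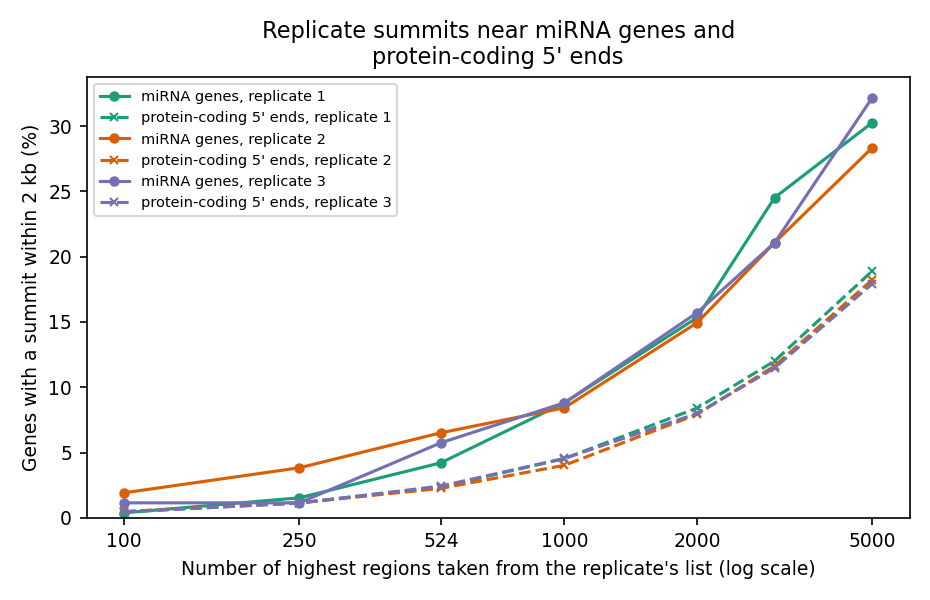
Percentage of genes (y axis) with a summit within 2 kb when the number of highest regions on the x axis (log scale) is taken from each replicate, for miRNA genes (solid lines, circles) and protein-coding 5′ ends (dashed lines, crosses). With as many regions as the IDR list, the miRNA genes stand at 4.21%, 6.51% and 5.75% and the 5′ ends at 2.36%, 2.26% and 2.43% in replicates 1, 2 and 3.

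Longer lists were taken from each replicate in the same way. With the 1000 highest regions, 8.81%, 8.43% and 8.81% of miRNA genes in replicates 1, 2 and 3 had a summit within 2 kb, against 4.54%, 4.03% and 4.55% of protein-coding 5′ ends. With the 3000 highest, the miRNA shares were 24.5%, 21.1% and 21.1%. With the 5000 highest, they were 30.3%, 28.4% and 32.2%, against 5′ end shares of 18.9%, 18.2% and 17.9%. With only the 100 highest, replicate 1 was below its 5′ ends, at 0.383% against 0.451%. Replicates 2 and 3 stood at 1.92% and 1.15%, against 0.491% and 0.461%. The replicate 2 genes were mir-52, at rank 95, and mir-54, mir-55, mir-55b and mir-56, which share the region of rank 96. That share thus rests on 2 regions.

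The relaxed lists cover most of the genome, so a region there says little of a single gene. A pooled relaxed summit lay within 2 kb of 204 of the 261 members (78.2%, 72.7 to 83.0), against 83.7% of protein-coding genes and 68.8% of genome bases. The share was 76.8% for stand-alone and 80.2% for hosted genes. In the replicate lists the counts were 208 (79.7%) in replicate 1, 203 (77.8%) in replicate 2 and 144 (55.2%) in replicate 3, against 69.5%, 69.3% and 38.2% of bases. All 3 replicate lists had a summit within 2 kb of 108 members, and 14 members had none in any list. The highest pooled region near each of the 204 members had a median rank of 6896 and a median signal of 10.6, in a range from 5.7 to 61.3.

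In most pairs of a member and an IDR summit, the summit lay upstream in the direction of transcription. Of the 18 pairs, 14 were upstream, 3 downstream and 1 inside. The pairs share 13 summits, so they are not independent. The antisense genes mir-8186.1 and mir-8186.2 gave 1 upstream and 1 downstream pair from the same summit. Stand-alone genes had 5 of 7 pairs upstream (71.4%) and hosted genes 9 of 11 (81.8%), and 440 of 537 pairs at protein-coding 5′ ends (81.9%) were upstream. With only the nearest IDR summit of each stand-alone gene counted, 4 of 6 were upstream within 2 kb, 2 of 4 within 1 kb and 7 of 9 within 5 kb. An upstream majority at stand-alone genes was thus absent within 1 kb, and these counts are small. Among the 5000 highest pooled regions, 62.7% of 59 stand-alone pairs and 70.4% of 54 hosted pairs were upstream, against 69.1% of 4324 pairs at protein-coding 5′ ends. In the whole relaxed list the shares were 54.7%, 54.3% and 54.6%. In all 3 of these lists the hosted share was within 1.5 percentage points of that at protein-coding 5′ ends.

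Of the 13 summits, 4 lay in the window from 1000 bp upstream to 200 bp downstream of a protein-coding start, 5 lay inside a protein-coding gene, 0 lay in an exon of one and 0 lay within 500 bp of a tRNA, snoRNA, snRNA or rRNA gene. Within 100 bp of the summit on either strand, GAGAGA was found at 9 of 13 (69.2%) and at 56.5% of all IDR summits. The E-box CACGTG was found at 3 of 13 (23.1%), among them the mir-54 and mir-71 summits, and at 11.3% of all. The GATA motif WGATAR was found at 3 of 13 (23.1%) and at 32.4% of all. Over only 13 summits these shares are coarse. The GC content of the same windows had a median of 51.2% (37.3 to 58.7), against 47.3% over all IDR summits.

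The let-7 family, which promotes later larval and adult fates, had no IDR summit within 2 kb of any of its 7 genes. Of all miRNA genes, 6.13% had one. The nearest lay 13284 bp from mir-48, 15060 bp from mir-241, 18688 bp from mir-795 and 19809 bp from mir-794. For mir-84, let-7 and mir-793 the nearest lay 34076, 35245 and 92668 bp away. The highest pooled region near mir-241 ranked 1000 (signal 22.0), 298 bp upstream, and that near let-7 ranked 1128 (signal 21.0), 1851 bp upstream of its annotation of 1732 bp. For mir-48 it ranked 1551 (signal 18.5), 969 bp downstream. The regions near mir-794, mir-795, mir-793 and mir-84 were low, with pooled ranks of 3962, 4812, 15661 and 19846. No member of the family had a top-list summit of any replicate within 2 kb, and neither had 231 of all 261 miRNA genes.

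For lin-4, which represses lin-14 to end the first larval stage and lies in F59G1.4, the highest pooled region ranked 771 (signal 24.6), 554 bp upstream. The replicates ranked their highest regions near lin-4 at 1313, 3071 and 5477, well outside their top lists. Its family member mir-237 had a pooled region of rank 18713 (signal 7.2). The gene lsy-6, which sets the left and right identities of the ASE taste neurons, had no pooled summit, a region of rank 10813 in replicate 1, one of rank 9645 in replicate 2 and none in replicate 3.

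Members just outside the IDR list by signal, chosen after their values were seen, were mir-5549 and mir-1819. The highest pooled region near mir-5549 had a signal of 28.0 and rank 566, and its summit was 20 bp upstream of the hairpin, with ranks of 2688, 2187 and 625 in replicates 1, 2 and 3. The one near mir-1819 had a signal of 27.4 and rank 590, 1929 bp downstream. Just outside 2 kb were mir-1, with an IDR summit 2397 bp upstream (signal 41.8, rank 205), and mir-60, with one 2844 bp upstream (signal 43.4, rank 180). Both of these summits had higher signals than most of the 13 within 2 kb. Just inside 2 kb were the farther summits of mir-71 and mir-2215 and the summit of mir-2216, at 1847, 1783 and 1781 bp.

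Genes of the proteins that make miRNAs or act with them were also examined. Of 20 such genes listed, 19 were matched by name, and 5 (26.3%) had an IDR summit within 2 kb, against 3.48% of all protein-coding genes. These genes are long, with a median of 4401 bp against 2027 bp, and the list was drawn up with earlier results of these data known. None of the 5 is a processing enzyme of the precursor: drsh-1 (Drosha), pash-1 (its partner) and dcr-1 (Dicer) had pooled ranks of 13290, 13054 and 2708. The Argonaute gene alg-1 had a summit inside the gene, 1611 bp from its start, with a signal of 35.5 (rank 325) and replicate ranks of 141, 449 and 484. Its partner gene ain-1, of the GW182 type, had one 859 bp upstream with a signal of 43.2 (rank 184) and replicate ranks of 39, 361 and 310. For the cofactor gene nhl-2 the summit was 855 bp upstream (rank 79; replicate ranks 1141, 151 and 32). Replicate ranks here are those of the highest region within 2 kb of the gene in each replicate, which need not be the same region. These 3 proteins act in silencing, and near alg-1 and ain-1 all 3 replicates had a top-list region. The exonuclease gene xrn-2 (rank 483) and the zinc finger gene somi-1 (rank 442) were nearer the end of the IDR list.

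On a list of 10 genes drawn up as miRNA targets, 4 (40%) had an IDR summit within 2 kb, again beside a background of 3.48%. Those without one were lin-28, hbl-1, lin-46, let-60, cog-1 and unc-54. Whether each listed gene is a miRNA target was not checked. The listed genes had a longer median length of 6598 bp. The target of lin-4, lin-14, had a summit 167 bp upstream (signal 42.6, rank 191; replicate ranks 356, 199 and 343). The target of let-7, lin-41, had one 1414 bp upstream (signal 57.3, rank 82; replicate ranks 18, 186 and 280), and daf-12, a nuclear receptor gene, had one inside the gene (signal 43.0, rank 188; replicate ranks 119, 239 and 323). Near these 3 genes every replicate had a top-list region, while near lin-42, the fourth, replicate 1 alone had one (ranks 513, 1119 and 642). Thus lin-14 and lin-41 had IDR summits, and lin-4 and let-7, like most miRNA genes, did not.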

How the data were processed

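The 3 biological replicates, whole L1 larvae, form 1 group of ChIP-seq peak lists. Per the file headers, each relaxed list was derived from the replicate's alignment and 1 control alignment shared by the replicates, and the IDR list from the replicate and pooled lists. For the aligner, the peak caller and the control, names and versions were not given in the sources used here. Signal, as deposited, was used only to rank and describe regions within a list. The authors' −log10 q-value was 3.17 in all IDR regions, and ranks do not use it. Positions come from the deposited summit offset. Lists on build ce11 were used, with Ensembl release 115 genes, RefSeq names (260 of 261 matched) and RefSeq sequence. The IDR list equals the highest pooled regions by signal, and a top list is the same number of regions from a replicate. Distances run from the summit to the nearest base of the gene.

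The members and lists were chosen with earlier results of these data known. Named were all members with an IDR summit, their hosts, the let-7 and lin-4 families, lsy-6, and listed pathway and target genes with an IDR summit, and further genes where a count or comparison called for it. No significance test was made. Intervals are exact 95% binomial intervals. Leaving out a replicate meant keeping IDR summits in the top lists of both others; IDR was not rerun. Alternatives were other distances, region overlap, shorter lists, host strand, motif windows and summits near egl-27 left out. The counting code was tested on simulated data. Software was matplotlib 3.10.9, pandas 2.3.3, scipy 1.17.1 and numpy 2.4.6 under Python 3.11.15.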

Additional observations from a re-analysis of the deposited data

How the results depend on the processing

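The count of 16 miRNA genes with an IDR summit within 2 kb was 12 at 1 kb and 21 at 5 kb, and it was 16 by region overlap and without summits within 20 kb of egl-27. It was 10 at 500 bp, 6 with the 262 highest IDR summits, 1 with the 134 summits in the top lists of all 3 replicates, and 4 to 5 with 1 replicate left out. An IDR summit lay within 500 bp, 1 kb and 5 kb of 1.18%, 1.70% and 4.97% of protein-coding 5′ ends. No background share was taken over the shorter sets of summits. For stand-alone genes (6) the same 262 summits gave 0, all 3 top lists 0 and leaving out a replicate 0 to 1, and counting only same-strand hosts as hosts gave 10. For hosted genes (10) the values were 6 at 500 bp, 6 with those 262 summits, 1 in all 3 top lists, 3 to 5 with a replicate left out and 6 with same-strand hosts only. The sets kept by rank or by top lists hold fewer summits by construction. Counting only same-strand hosts keeps the summits and moves genes between the classes. The 32 genes with a host on the opposite strand only, 4 of them with a summit, then count as stand-alone. The 204 genes near pooled relaxed summits became 111 at 500 bp and 83 with the 5000 highest regions. The mean of 14.3 genes near the highest summits of a replicate became 22.7 with 1000 and 40 with 2000 regions, and 13.0 to 16.0 with a replicate left out. The background of 3.48% became 2.55% from the 5′ end and 2.5% at 1 kb. GAGAGA was found at 46.2% of the 13 summits within 50 bp and at 76.9% within 200 bp. No paired analysis was possible because the series has 1 group and no second condition to pair with. Depth is unknown, and 13 summits limit every share given here.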
